A study of Arabidopsis thaliana with 12 samples.

Results

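The results described here are the effect of the cytokinin 2iP on transcript levels in wild-type Arabidopsis root explants. They are the rows of the authors' deposited comparison table that set wild type on shoot-inducing medium with 0.05 mg/L 2iP against wild type on the same medium without it. This comparison holds 33557 annotated features, out of 201342 entries in the 6 pairwise comparisons of the table. WT with cytokinin (3 samples) and its control, WT without cytokinin (3 samples), are both Col-0 carrying the gl1 mutation. The other groups of 3 samples, labelled CPL4RNAi with cytokinin and CPL4RNAi without cytokinin, enter only where the wild-type effect is compared with theirs. All explants were root segments of seedlings 10 days old, kept for 5 days on callus-inducing medium and then for 72 hours on shoot-inducing medium, and they were 18 days old at harvest. A root explant at this stage is a mixture of root tissue and callus, and its RNA was sequenced in bulk.

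2iP (isopentenyladenine) is a naturally occurring cytokinin. Cytokinins bind histidine kinase receptors, which pass a phosphate through histidine phosphotransfer proteins to type-B response regulators in the nucleus. Type-B regulators are transcription factors, and among their direct targets are the type-A response regulators, which lack a DNA-binding domain and dampen the signal. The balance of cytokinin to auxin decides whether cultured plant tissue forms shoots or roots, and in the root cytokinin is known for its action on vascular differentiation and on the size of the meristem.

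Of the 33557 features, 18827 were tested by the authors and 14730 were not. A gene is called here where the q-value of the authors' deposited table (an adjusted p-value) is at or under 0.05. By this rule 1938 genes were called, 10.3% of those tested. Of these, 1239 (6.58%) were higher with cytokinin and 699 (3.71%) were lower. These shares over all tested genes are the background for every count of a list or family below. Fold changes are given as log2 of FPKM (fragment counts scaled to transcript length and library size) with cytokinin over FPKM without it, with no pseudocount. Most called changes were small: their median was 0.60 for genes called higher and -0.70 for genes called lower, against a median of 0.02 over all tested genes. At least 2-fold changes were found in 313 genes called higher and 205 called lower, and at least 4-fold changes in 97 and 55. The plot of fold change against expression level shows called genes at every level, with the largest folds among weakly expressed genes.

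**Figure D1:**
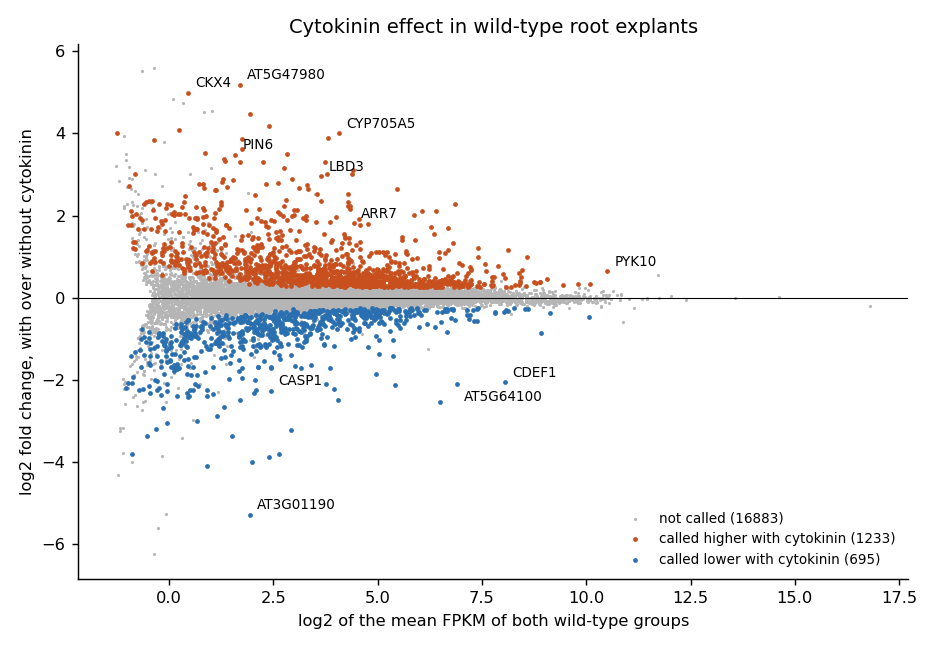
Each point is a tested gene with FPKM above 0 in both wild-type groups, by log2 of its mean FPKM (x axis) and its log2 fold change with over without cytokinin (y axis). Of the called genes, 1233 lie above 0 (orange) and 695 below (blue), from CKX4 and AT5G47980 at the top to the peroxidase gene AT3G01190 at the bottom.

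Only group FPKM are held in the table, so no value per sample can be shown and the depth of each library is unknown. The standard error (SE) given for a log2 fold change is the one its deposited p-value implies. For 700 genes the p-value stands at the smallest value of the table, 5e-05, and only the largest SE this allows is given ("at most"). Genes not called had a median distance of 0.25 on the log2 scale from their fold change to the bounds of its 95% interval. The labels number the replicates without saying whether they were separate cultures, so p-values measure the spread between these samples, which may be technical. Root and callus markers were present in both wild-type groups: WOX5, a gene of the root stem cell niche, had 135 FPKM with cytokinin and 155 without, and SHR had 46.3 and 50.6. Of 31 genes of greening and photosynthesis 15 were tested, and the leaf genes RBCS1A (0.314 with cytokinin and 0.116 without) and LHCB1.1 (0.0223 and 0.0229) were near 0. The root hair markers COBL9 (0.298 with cytokinin and 0.212 without) and GL2 (0.0951 and 0.254) were near 0 as well. In bulk RNA, fewer cells of a type and less RNA per cell cannot be told apart.

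Promoters of genes that moved together are shown here because type-B response regulators bind sites with the core AGATT. Within the type-A genes, and within the thalianol genes described below, that core stands before some members and not before others. Each sequence is the 250 bases before the RefSeq start of the gene (TAIR10.1), written on the gene's strand, with every AGATT or its reverse complement AATCT in capitals. They lie at chr1:6579315-6579564 (ARR7, minus strand), chr5:25254319-25254568 (ARR6, minus), chr3:17760951-17761200 (ARR5, minus), chr5:19428638-19428887 (AT5G47980, plus) and chr5:19434508-19434757 (CYP705A5, plus). No other annotated gene overlaps any of these windows.
ARR7: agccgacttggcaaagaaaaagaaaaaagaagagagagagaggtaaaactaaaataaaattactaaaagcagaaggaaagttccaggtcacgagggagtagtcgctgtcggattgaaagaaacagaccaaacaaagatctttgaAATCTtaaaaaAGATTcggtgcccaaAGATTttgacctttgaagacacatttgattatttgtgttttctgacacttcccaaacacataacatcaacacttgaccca
ARR6: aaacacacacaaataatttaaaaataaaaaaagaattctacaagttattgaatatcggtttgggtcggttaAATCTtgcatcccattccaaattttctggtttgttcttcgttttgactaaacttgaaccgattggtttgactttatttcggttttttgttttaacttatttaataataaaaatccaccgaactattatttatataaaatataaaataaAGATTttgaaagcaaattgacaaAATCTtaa
ARR5: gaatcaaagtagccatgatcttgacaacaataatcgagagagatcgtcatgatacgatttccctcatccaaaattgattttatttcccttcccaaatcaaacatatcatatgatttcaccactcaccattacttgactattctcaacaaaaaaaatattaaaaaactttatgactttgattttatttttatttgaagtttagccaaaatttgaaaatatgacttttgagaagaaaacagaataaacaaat
AT5G47980: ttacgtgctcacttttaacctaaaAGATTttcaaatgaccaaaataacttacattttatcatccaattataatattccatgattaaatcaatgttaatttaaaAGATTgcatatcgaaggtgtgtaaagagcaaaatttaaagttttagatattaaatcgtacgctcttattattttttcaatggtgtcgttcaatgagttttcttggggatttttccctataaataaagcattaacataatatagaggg
CYP705A5: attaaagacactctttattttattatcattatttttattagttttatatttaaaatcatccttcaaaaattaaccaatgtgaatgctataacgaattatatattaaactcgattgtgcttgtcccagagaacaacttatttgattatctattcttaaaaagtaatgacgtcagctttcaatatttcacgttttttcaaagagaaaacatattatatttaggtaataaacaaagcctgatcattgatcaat

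The ARR7 and ARR6 windows hold 3 matches each, that of AT5G47980 holds 2, and those of ARR5 and CYP705A5 hold 0. These windows are a selection: of those not printed, that of ARR4 holds 0 and that of THAS1 holds 2. Over all 18649 tested genes with such a window, 62.5% hold at least 1 match on either strand (95% exact interval 61.8 to 63.1, which covers counting error only). The share was 62.1% among genes called higher (766 of 1233) and 62.5% among genes called lower (436 of 698). Among the 97 genes called at least 4-fold higher it was 66.0% (55.7 to 75.3), an interval that includes the share over all tested genes. With the longer motif AAGATNTT the share was 13.5% among genes called higher (11.6 to 15.5), 9.89% among genes called lower (7.77 to 12.3) and 11.5% over all tested genes. Among the 97 genes called at least 4-fold higher it was 18.6% (11.4 to 27.7). On the gene's strand alone, AGATT stood before 36.1% of genes called higher, 34.5% of genes called lower and 37.4% of all tested genes. For those 97 genes this share was 46.4% (36.2 to 56.8). With the longer motif and on the gene's strand alone, the intervals of the 97 genes also include the share over all tested genes. A match is a description of these letters and not a bound site.

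Signalling components upstream of the type-A response regulators were mostly not called, and the type-A genes rose. All 3 receptor genes were tested and none was called. AHK4 (AT2G01830), the main cytokinin receptor of the root, had 27.9 FPKM with cytokinin and 23.6 without, a log2 fold change of 0.24 (95% interval 0.03 to 0.45). AHK3 had 42.2 and 41.6, and AHK2 had 11.6 and 12.4. Of 6 phosphotransfer genes 5 were tested, and 1 was called. It was AHP6 (AT1G80100), a pseudo-phosphotransfer protein that inhibits cytokinin signalling beside the protoxylem, which fell to 2.58 FPKM with cytokinin, against 8.31 without, by 1.69 on the log2 scale (SE at most 0.42). AHP1, the most abundant of the others, had 86.9 with cytokinin and 77.5 without and was not called. None of the 6 tested type-B response regulators of 11 was called. ARR1 had 28.5 with cytokinin and 29.9 without, ARR10 had 37.5 and 36.1, and ARR12 had 23.5 and 23.0, with 95% intervals of the log2 fold change inside -0.28 to 0.26 for each.

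Of 10 type-A response regulator genes 9 were tested and 8 were called, all higher, with a median log2 fold change of 1.00 over those tested. ARR7 (AT1G19050; chromosome 1, 6577833 to 6579178, TAIR10) had 33.5 FPKM with cytokinin and 9.54 without, a 3.51-fold difference. ARR4 (AT1G10470), the most abundant type-A gene with cytokinin, had 163 and 94.4. ARR5 (AT3G48100) had 74.4 and 38.6, and ARR6 (AT5G62920) had 37.0 and 18.4. ARR8 and ARR9 changed least, by 0.38 (SE 0.12) and 0.37 (SE 0.11). ARR9 had 139 FPKM with cytokinin and was already at 108 without it. ARR16 was listed at 0.882 with cytokinin and at 0 without. ARR15 had 3.91 with cytokinin and 0.168 without, but its SE of 2.29 left it uncalled. ARR7, which with ARR6 had the most AGATT matches in the 250-base window (3 each), rose by 1.81. ARR5 and ARR4, with no AGATT in the window, rose by 0.95 and 0.79, and ARR9, with 2 matches, by 0.37. Whether the matches bear on the rise was not tested. Of the 6 cytokinin response factor genes, AP2-type factors of a side branch of the pathway, CRF4 was called lower (26.7 with cytokinin and 32.9 without) and the other 5 were not called.

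Genes that remove cytokinin rose, while some that activate it fell. Cytokinin oxidases (CKX) degrade the hormone, and 6 of the 10 oxidase and glucosyltransferase genes were called higher, none lower, with a median log2 fold change of 0.86. CKX4 (AT4G29740) had 2.64 FPKM with cytokinin and 0.0828 without, which is a log2 fold change of 4.99 (SE at most 1.23). CKX1 had 3.43 with cytokinin and 0.819 without, and CKX2 had 1.74 and 0.429. CKX3, the most abundant oxidase gene of these explants, had 185 and 116. CKX5 had 26.0 and 12.3, and CKX7 had 3.27 and 1.58. CKX6 was not called, at 20.8 with cytokinin and 17.37 without. Nor were the 3 glucosyltransferase genes, of which UGT76C2 was highest at 68.8 and 61.8. The largest folds were thus those of CKX4, CKX1 and CKX2, which are among the weakly expressed oxidase genes.

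Among genes of cytokinin synthesis and activation 9 of 19 were tested. LOG3 and LOG4 encode enzymes that free the active base from its ribotide. LOG3 fell to 16.9 FPKM with cytokinin, against 29.7 without, and LOG4 to 8.97 against 14.8. CYP735A2 (AT1G67110), the hydroxylase that turns isopentenyl cytokinins into trans-zeatin forms, rose to 1.42 with cytokinin, against 0.605 without. The isopentenyltransferase genes IPT1, IPT3, IPT5 and IPT7 were each under 1 FPKM in both groups and were not tested. Of 6 transport genes tested, the purine transporter genes AZG1 and AZG2 were called in opposite directions. AZG1 had 15.4 with cytokinin and 8.67 without (log2 0.83, SE at most 0.21), and AZG2 had 6.56 and 12.5 (-0.93, SE at most 0.23). Of other early cytokinin targets 3 of 5 tested were called, all higher. LBD3 (AT1G16530) had 22.2 with cytokinin and 2.86 without, a 7.76-fold difference, and the MYB-related gene RSM1 had 3.95 and 1.16.

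**Figure D2:**
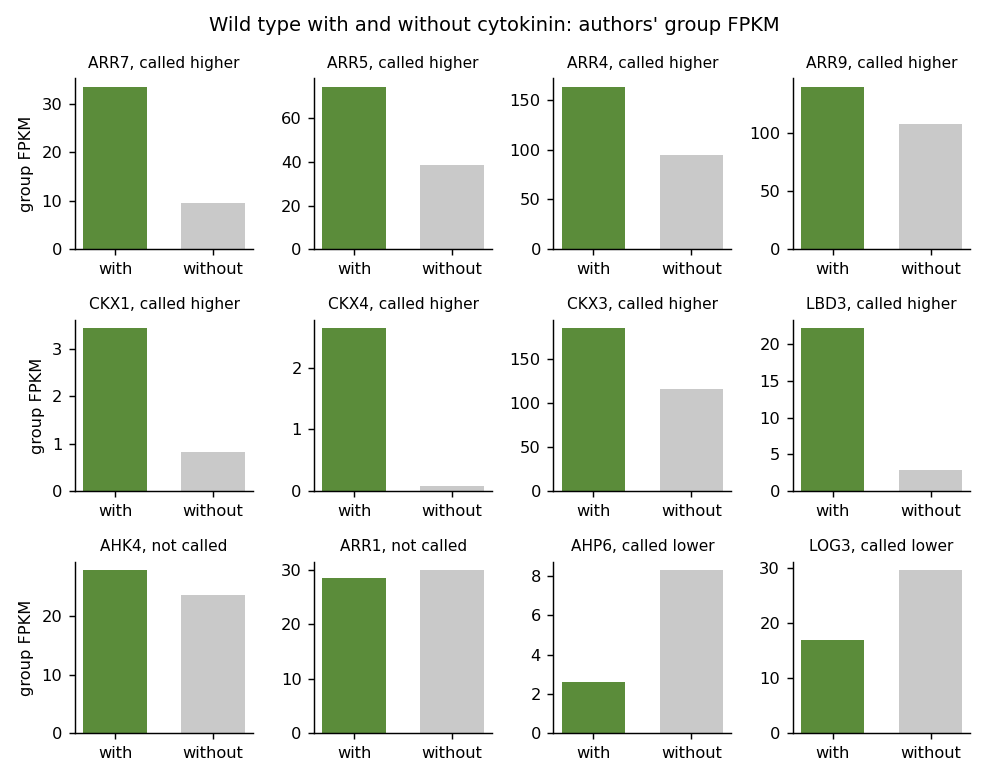
Bars give the authors' group FPKM (y axis, from 0, a separate scale in each panel) in wild type with cytokinin (left, green) and without (right, grey) for 12 genes of cytokinin signalling and metabolism. No error bar is drawn because the table has no replicate values; type-A and CKX genes and LBD3 are higher with cytokinin, the receptor gene AHK4 and the type-B gene ARR1 were not called, and AHP6 and LOG3 are lower.

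Xylem and secondary wall genes had the highest median fold change of the vascular lists. Secondary walls of xylem vessels are built of cellulose made by a dedicated trio of cellulose synthases, of xylan and of lignin, and the vessel cells then die by the action of proteases and nucleases. Of 23 secondary wall and xylem protease genes 19 were tested, and 13 were called higher and none lower, with a median log2 fold change of 1.13. The cellulose synthase genes CESA4 (2.87 FPKM with cytokinin and 0.420 without), CESA7 (2.55 and 1.18) and CESA8 (2.22 and 0.400) were all called. The xylem cysteine peptidase genes XCP1 (17.1 with cytokinin and 2.57 without) and XCP2 (13.5 and 1.83) had log2 fold changes of 2.74 and 2.89, each with an SE of at most 0.71. The xylan synthesis gene IRX9 had 1.27 with cytokinin and 0.247 without, TED6 had 11.1 and 2.36, and the metacaspase gene MC9 had 11.7 and 5.33. The widely expressed xylan genes IRX10 (4.63 and 3.896) and IRX14 (12.0 and 11.7) were not called.

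Of 22 xylem regulator genes 12 were tested and 5 were called, all higher. They were the vessel NAC genes VND1 (8.04 FPKM with cytokinin and 4.79 without) and VND3 (2.11 and 1.03), SND3, MYB85 and T5L1. T5L1 (AT1G68810), a bHLH factor that acts with LHW in the young vasculature, had 6.58 and 2.67, while its relative TMO5 had 40.9 and 38.2 and LHW had 56.2 and 56.9, neither called. The master switches VND6 (1.04 with cytokinin and 0.228 without) and VND7 (0.832 and 0.338) had 95% intervals of the log2 fold change of 0.32 to 4.06 and 0.11 to 2.49 and were not called. The fibre switches SND1, NST1 and NST2 were listed at 0 in both groups.

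Lignin genes rose more uniformly but less. Of 25 genes 20 were tested, 17 were called higher and 1 lower, with a median log2 fold change of 0.51. PAL1, the entry from phenylalanine, had 99.2 FPKM with cytokinin and 76.7 without, C4H had 244 and 183, 4CL1 had 64.7 and 39.4, and CCoAOMT1 had 406 and 284. COMT1 (165 and 115) and CAD5 (129 and 91.2), late steps of the pathway, were called as well. The laccases, which polymerise lignin in the wall, had the largest folds. LAC17 (AT5G60020) had 3.35 with cytokinin and 0.292 without, LAC11 had 5.90 and 0.601, and LAC4 had 1.75 and 0.412. The single member called lower was the peroxidase gene PRX71, with 57.4 with cytokinin and 88.8 without. The whole laccase family had 9 members tested of 17, of which 6 were called higher and none lower.

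Cambium genes rose in part. Of 14, all tested, 5 were called higher and none lower. PXY (AT5G61480), the receptor kinase that keeps cambium cells dividing, had 29.3 FPKM with cytokinin and 10.7 without (log2 1.45, SE at most 0.36). Its target WOX4 had 13.02 and 4.26, and ANT, an AP2 factor of cambium and organ growth, had 14.8 and 3.83. RUL1 and LBD4 were called with smaller changes of 0.64 and 0.39. The peptide ligand genes of PXY were not called: CLE41 had 17.7 with cytokinin and 14.9 without, and CLE44 had 231 and 209. In phloem, 5 of 18 tested genes were called higher and 1 lower. The sucrose transporter gene SUC2 of companion cells had 33.6 and 23.7, OPS had 18.9 and 12.2, and the sucrose exporter gene SWEET12 was lower, at 1.66 with cytokinin and 4.72 without. APL, a master regulator of phloem identity, had 6.41 and 6.11 and was not called.

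**Figure D3:**
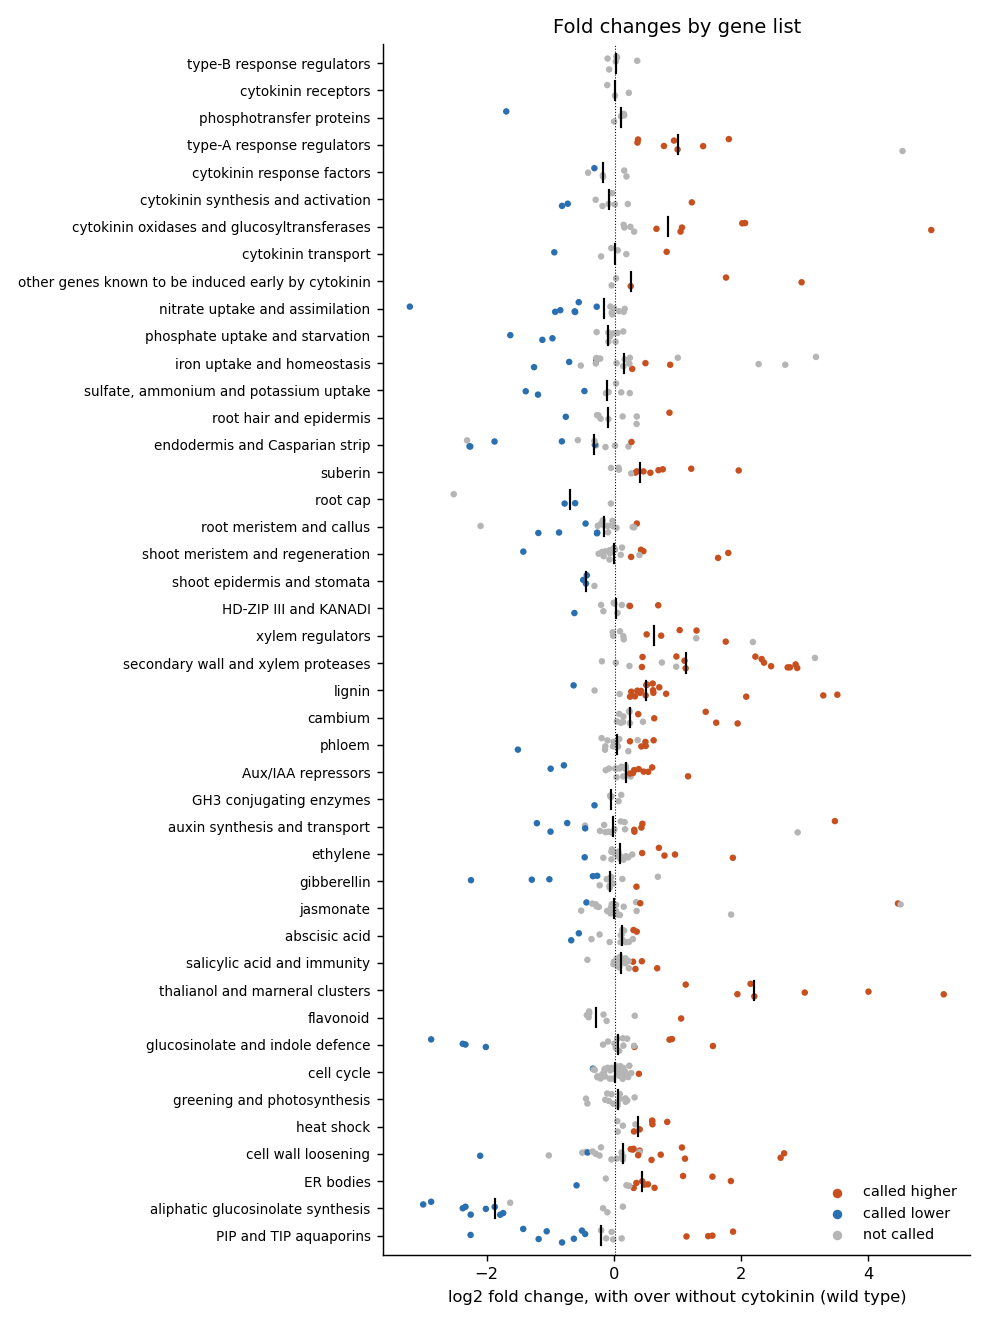
Each point is a tested gene by its log2 fold change with over without cytokinin in wild type (x axis), grouped by gene list (rows), with genes called higher in orange, called lower in blue and not called in grey. Black ticks are list medians and the dotted line is the median of all tested genes, 0.02. Thalianol and marneral, secondary wall and type-A response regulator lists have the highest medians, 2.21, 1.13 and 1.00. Aliphatic glucosinolate synthesis, a list chosen after its values were seen, has the lowest, -1.87.

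The barriers of the root endodermis moved apart. The Casparian strip is a lignin band laid down on a scaffold of CASP proteins, and suberin is the polyester coat formed later. Of 13 endodermis genes tested of 15, 5 were called lower and 1 higher. CASP1 (AT2G36100) fell to 1.88 FPKM with cytokinin, against 9.07 without, and CASP2 to 0.684 against 2.51. ESB1, a dirigent protein of the strip, had 3.41 with cytokinin and 6.001 without, and the transcription factor gene SCR had 14.7 and 18.1. MYB36, which switches on the CASP genes, had 9.68 and 11.7 (log2 -0.28, SE 0.14) and was not called. The called member that went the other way, PELPK1, had 59.6 and 49.1. Of 12 suberin genes tested of 13, 8 were called higher and none lower, with a median log2 fold change of 0.42. FAR5 (25.4 with cytokinin and 6.49 without) and CYP86A1 (24.4 and 10.5) changed most, with log2 fold changes of 1.97 and 1.22. The acyltransferase gene GPAT5 had 8.79 and 5.89, the feruloyltransferase gene ASFT had 57.3 and 41.4, and the exporter genes ABCG2 and ABCG20 rose by 0.70 and 0.37. CDEF1 (AT4G30140), a cutinase that degrades suberin and cutin, had one of the largest losses in FPKM among called genes. It had 103 FPKM with cytokinin and 428 without.

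Some root cap and root meristem regulators were lower. The root cap genes SMB (5.16 FPKM with cytokinin and 7.86 without) and BRN1 (3.11 and 5.31) were 2 called lower of 4 tested. BRN2 had 0.199 and 1.139 (log2 -2.52, SE 1.07) and was not called. Of 19 root meristem and callus genes, all tested, 5 were called lower and 1 higher. PLT1 (36.7 with cytokinin and 43.9 without), PLT2 (11.3 and 15.4) and BBM (49.5 and 59.3), AP2 factors that maintain the root meristem, fell by 0.26, 0.44 and 0.26. LBD29, an auxin-induced gene of callus and lateral roots, fell by 1.18 to 3.04, against 6.91 without, while LBD16 and LBD18 were not called. WOX11, a regulator of de novo root founder cells, was higher, at 46.4 and 36.0. In the epidermis list, of which 9 of 19 were tested, WER was lower (3.58 and 6.03) and RHD2, an NADPH oxidase of root hair growth, higher (1.74 and 0.946).

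Genes of shoot stem cells were at or near 0 at this time. WUS, the central gene of the shoot stem cell niche, and ESR2 were listed at 0 in both groups and STM had 0.0436 with cytokinin and 0.0652 without. Some regulators of wounding and early regeneration rose. Of 19 shoot meristem and regeneration genes tested of 26, 5 were called higher and 1 lower. The median log2 fold change of those tested was 0.007. ESR1 (AT1G12980), an AP2 factor that promotes shoot regeneration, had 1.39 FPKM with cytokinin and 0.397 without, a 3.49-fold difference (SE of the log2 fold change 0.59). ERF115, which responds to cell death in stem cell niches, had 3.31 and 1.06. RAP2.6L (157 and 117), WIND1 (158 and 131) and WIND3 (80.6 and 58.3), wound-induced factors, rose by 0.43, 0.27 and 0.47. The member called lower was TCP10, at 0.651 with cytokinin and 1.74 without. CUC2 (11.5 and 10.5) and CUC1 (1.797 and 1.88), boundary genes of shoot progenitors, were not called. Epidermal identity genes fell: ATML1 (4.51 and 6.28), PDF2 (8.65 and 11.7) and PDF1 (20.7 and 27.8) were 3 called lower of 4 tested. Among HD-ZIP III and KANADI genes CNA and ATHB8 were higher and KAN4 lower. ATHB8, which marks procambium, had 43.4 and 26.7.

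Cell cycle and greening genes were called in numbers that do not stand out from the 10.3% over all tested genes. Of 34 cell cycle genes, all tested, 2 were called: CYCD3;1, a D-type cyclin known to respond to cytokinin, was higher (100.2 FPKM with cytokinin and 76.1 without, log2 0.40) and CYCD1;1 lower (10.1 and 12.6). CYCB1;1 had 14.8 and 14.1, with a 95% interval of the log2 fold change from -0.18 to 0.31. None of the 15 tested greening genes was called. Of 310 tested genes annotated as ribosomal proteins 2 were called, which is 0.645%.

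Auxin genes moved in both directions. The Aux/IAA repressors, short-lived inhibitors of auxin response, had 23 of 29 members tested, 8 called higher and 2 lower. IAA3 (AT1G04240), known as SHY2 and as a direct target of cytokinin signalling in the root, had 22.2 FPKM with cytokinin and 9.85 without, the largest rise of the family (log2 1.17, SE at most 0.29). IAA17 (143 and 94.3) and IAA1 (68.2 and 46.8) rose by 0.60 and 0.54. IAA7 (2.69 and 5.35) and IAA14 (3.13 and 5.38) fell by 0.99 and 0.78. Of 20 synthesis and transport genes tested of 32, 5 were called higher and 4 lower. The synthesis genes TAA1 (2.73 with cytokinin and 6.30 without) and YUC8 (3.85 and 6.39) fell by 1.21 and 0.73. Among efflux carriers PIN6 (AT1G77110) had 5.52 and 0.495, an 11.1-fold difference, whereas PIN2 had 6.55 and 13.03. PIN3, PIN7 and ABCB1 rose by 0.33, 0.32 and 0.44. GH3 enzymes conjugate auxin to amino acids; GH3.17 was the single member called, lower, and GH3.3 had 524 and 482.

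ACC synthase genes of ethylene synthesis rose and several gibberellin synthesis genes fell. Of 20 ethylene genes tested 5 were called higher and 1 lower. ACC synthase makes the precursor of ethylene: ACS2 had 8.96 FPKM with cytokinin and 2.44 without, ACS8 had 47.1 and 27.1, ACS7 had 5.29 and 3.23, and ACS6 had 19.1 and 13.98. The oxidase gene ACO1 fell to 11.9 with cytokinin, against 16.4 without. No receptor or signalling gene of the ethylene list was called, and EIN3 had 158 and 157. Of 16 gibberellin genes tested 5 were called lower and 1 higher. The synthesis genes GA20OX3 (0.212 and 1.00), GA3OX1 (0.846 and 1.71) and GA3OX2 (0.549 and 1.34) and the repressor genes GAI and RGA were lower, and the inactivation gene GA2OX2 was higher, at 60.6 and 47.3.

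In the stress hormone lists the share called was 12% for jasmonate, 25% for abscisic acid and 22.2% for salicylic acid and immunity, against 10.3% over all tested genes. Of 25 jasmonate genes tested 2 were called higher and 1 lower, and none of the tested JAZ repressor genes was called. VSP1 (AT5G24780), a vegetative storage protein gene, stood apart with 7.29 FPKM with cytokinin and 0.329 without, a log2 fold change of 4.47. Its close copy VSP2 had 3.399 and 0.149 and was not called (SE 2.61), and reads shared by such copies could be split between them. In the abscisic acid list the phosphatase genes ABI2 and PP2CA were higher and the receptor genes PYL5 (13.2 with cytokinin and 21.0 without) and PYL6 (13.7 and 19.998) lower, of 16 tested. Of 18 salicylic acid and immunity genes tested 4 were called higher, with FMO1 changing most, at 15.5 and 9.62. Of 10 heat shock genes tested 6 were higher, among them MBF1C (58.9 and 32.8), HSP90.1 (31.7 and 20.8) and HSP101 (19.7 and 12.96).

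Genes for mineral uptake fell where they were called, apart from iron. Of 14 nitrate genes tested 7 were called lower and none higher. NRT1.1 (AT1G12110), the dual-affinity nitrate transporter and sensor, had 20.1 FPKM with cytokinin and 30.6 without, and its relative NRT1.5, which loads nitrate into xylem, had 0.158 and 1.45 (log2 -3.21, SE 0.82). NRT3.1, the partner of high-affinity transporters, had 15.3 and 27.4, and the asparagine synthetase gene ASN1 had 21.4 and 40.4. The nitrate reductase genes NIA1 (108 and 96.0) and NIA2 (120 and 119) were not called. Of 11 phosphate genes tested 3 were called lower: PHT1;1 (5.20 with cytokinin and 16.1 without), PHT1;4 (3.33 and 7.24) and PHO1 (0.943 and 1.84). The sulfate transporter gene SULTR1;2 had 16.6 and 37.9, and the ammonium transporter gene AMT1;3 had 4.23 and 11.0, 2 of 3 called lower among 8 tested. Of 20 iron genes tested 3 were called higher and 3 lower. The iron transporter gene OPT3 had 52.0 and 28.1, whereas FIT, a master regulator of iron uptake, had 1.66 and 2.696.

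Aquaporins, which carry water across membranes, split within each subfamily. Of 20 PIP (plasma membrane) and TIP (vacuolar membrane) genes 17 were tested, 8 were called lower and 4 higher. PIP2;5 (AT3G54820) had 71.0 FPKM with cytokinin and 25.3 without, TIP2;1 had 27.4 and 9.33, and TIP1;2 had 70.0 and 31.6. PIP2;2 had 28.5 with cytokinin and 50.0 without, PIP2;8 had 34.2 and 52.7, TIP1;1 had 2.81 and 6.38, and TIP2;2 had 0.495 and 2.35. PIP2;2 and PIP2;3 are near-identical copies, so reads may have been split between them. The most abundant members, PIP2;7 (493 and 535) and PIP1;2 (355 and 406), were not called.

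Class III peroxidases, secreted enzymes that stiffen or loosen walls, were called at a high rate and in both directions. Of 72 genes 50 were tested, 15 were called higher and 14 lower, which is 58% against 10.3% over all tested genes. The median log2 fold change of those tested was 0.04. At the extremes, AT5G51890 had 12.1 FPKM with cytokinin and 1.36 without (log2 3.15, SE at most 0.78), and AT3G01190 had 0.191 and 7.44 (-5.29, SE 1.76). PRXCB (AT3G49120) had 510 and 258. Peroxidase genes AT5G64100 (44.7 with cytokinin and 193 without), AT5G64110 (2.54 and 8.38) and AT5G64120 (57.4 and 88.8), the last of which is PRX71, are neighbours on chromosome 5 and were all lower. Lists of aquaporins, aliphatic glucosinolate genes and ER body genes, and gene families taken from annotated product names, were chosen after their values were seen, and their counts are descriptions.

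**Figure D4:**
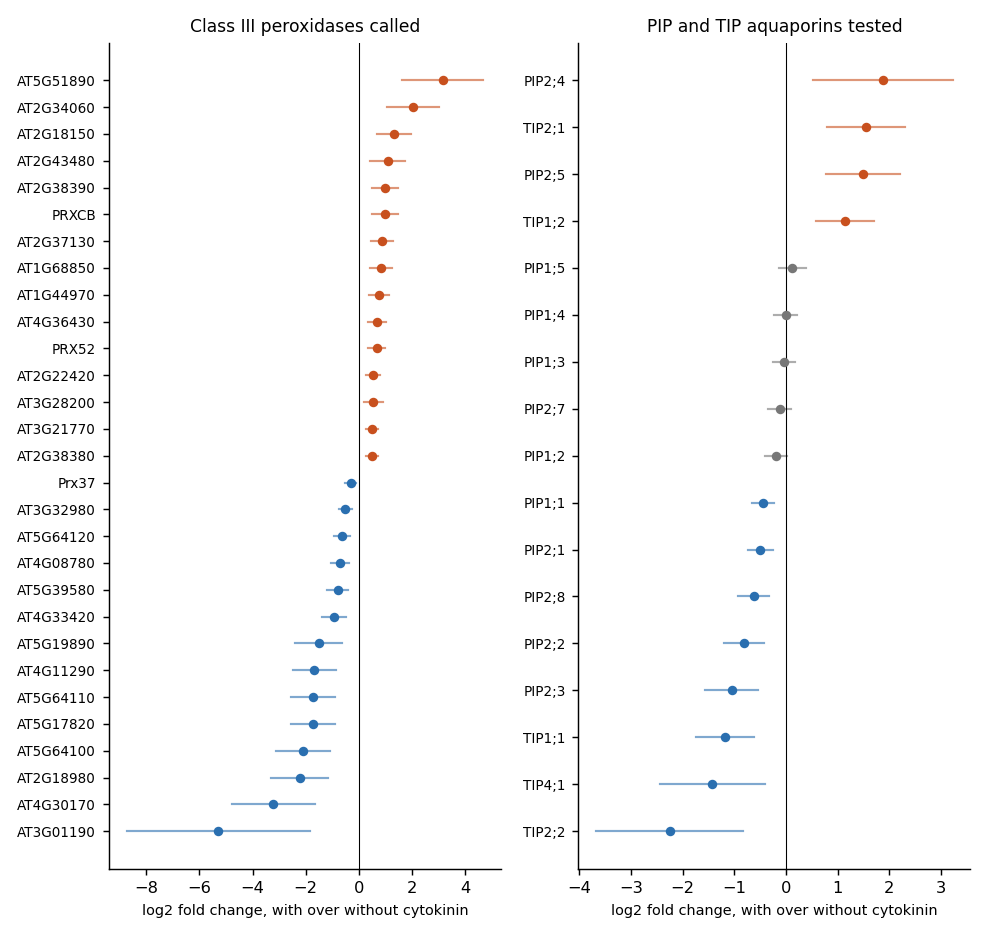
Points are log2 fold changes with over without cytokinin in wild type (x axis) of the 29 class III peroxidase genes called (left) and the 17 PIP and TIP aquaporin genes tested (right); lines are 95% intervals implied by the deposited p-values, the widest allowed where p is at its floor. Genes called higher are orange, called lower blue and not called grey, and both families hold clear members of each sign, such as AT5G51890 and AT3G01190 or PIP2;5 and TIP2;2.

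Specialised metabolism gave the largest list median. Thalianol and marneral are root triterpenes made by enzymes whose genes lie side by side, and all 7 tested genes of 8 were called higher, with a median log2 fold change of 2.21. THAS1 (AT5G48010), the thalianol synthase, had 32.9 FPKM with cytokinin and 7.405 without. The P450 genes CYP708A2 (AT5G48000) had 37.1 and 4.62 and CYP705A5 (AT5G47990) had 31.9 and 1.98. The acyltransferase gene AT5G47980 had 6.28 and 0.172, a log2 fold change of 5.19 (SE 1.33), the largest called rise among genes that reach 5 FPKM with cytokinin and are above 0 without. CYP71A16 (2.54 and 0.660) and CYP705A12 (0.942 and 0.430) of the marneral cluster were called, and the marneral synthase gene MRN1 was listed at 0 in both groups.

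Aliphatic glucosinolate synthesis, which makes methionine-derived defence compounds, ran the other way. Of 13 genes tested 9 were called lower, each at least 2-fold, and none higher. The chain-elongation genes MAM3 (0.537 FPKM with cytokinin and 3.93 without), BCAT4 (0.352 and 2.81) and IMD1 (1.46 and 6.96) fell by 2.87, 3.00 and 2.25, and the P450 gene CYP79F2 had 0.284 and 1.47. Its indole counterparts did not fall: CYP79B2 had 34.4 and 27.4 and was called higher, and CYP83B1 had 90.3 and 88.3. The camalexin genes CYP71A13 (2.79 and 0.945) and PAD3 (26.5 and 14.1) were higher. ER bodies are stores of beta-glucosidase in root cells, and of 13 such genes tested 9 were higher and 1 lower. PYK10 (AT3G09260), the beta-glucosidase of root ER bodies, had the largest gain in FPKM of the called genes, with 1766 with cytokinin and 1131 without. Its partners JAL22 (121 and 41.4) and PBP1 (777 and 625) and the regulator NAI1 (73.3 and 53.7) rose, while BGLU21 fell to 72.9 against 109.

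Wall proteins that loosen or decorate the primary wall were also called often. Of 27 expansin and XTH genes tested 11 were called higher and 2 lower, which is 48.1% against 10.3% over all tested genes. EXPA8 (15.1 FPKM with cytokinin and 2.35 without) and XTH33 (3.73 and 0.604) changed most among those higher, and EXPA4 (389 and 293) was the most abundant. EXPA11 fell to 0.365 with cytokinin, against 1.56 without. Of 32 genes annotated as arabinogalactan proteins tested 13 (40.6%) were called higher and none lower, among them AGP21 (143 and 64.0). Of 65 C1 domain genes tested 19 (29.2%) were called lower and none higher, led by AT5G40590 (5.03 and 28.1). Of 118 cytochrome P450 genes tested 34 were called higher and 13 lower (39.8% called).

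Among the other genes with the largest folds, LCR25 (AT4G29305), a small cysteine-rich protein gene, had 24.2 FPKM with cytokinin and 2.45 without, and the sulfotransferase gene ST4B had 26.3 and 1.77. SDR4 had 38.3 and 4.46, and MLP328 had 12.9 and 1.15. At the other end GSTF14 (AT1G49860), a glutathione transferase gene, had 0.665 with cytokinin and 9.80 without. The pectate lyase gene AT1G67750 had 0.826 and 11.5, the chitinase gene AT2G43590 had 26.3 and 153, and PGAZAT, a polygalacturonase gene, had 15.9 and 69.3. By FPKM, among called genes, GASA4, a small gibberellin-regulated protein gene, lost most after CDEF1 and the lipid transfer protein gene AT5G01870 (906 and 1249). GASA4 had 342 with cytokinin and 620 without. EBP (AT3G16770), an ERF transcription factor gene, gained, at 618 and 450. The germin-like cupin gene AT5G38940 was listed at 0 with cytokinin and at 5.58 FPKM without.

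Mature sequences are printed for 3 of the 4 microRNA genes called, and that of MIR414 is not printed. Libraries were of total RNA, so FPKM here are of the precursor gene and not of the mature microRNA. Of 178 annotated microRNA genes 16 were tested, 3 were called higher and 1 lower, beside 10.3% called over all tested genes. Bases 2 to 8, the seed, are in capitals in the RefSeq sequences (TAIR10.1), which lie on the minus strand at chr4:15415491-15415510 (miR156c-5p), chr5:2634936-2634956 (miR162a-3p) and chr5:897287-897307 (miR822-5p).
miR156c-5p: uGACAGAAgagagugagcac
miR162a-3p: uCGAUAAAccucugcauccag
miR822-5p: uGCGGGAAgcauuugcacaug

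MIR156c, whose product targets SPL factors of the juvenile phase, had 40.7 FPKM with cytokinin and 30.3 without (log2 0.43, SE 0.13). MIR162a, whose product targets the processing enzyme DCL1, had 9.03 and 6.07 (0.57, SE 0.22). MIR822 had 6.28 and 13.004 (-1.05, SE 0.38), and another annotated gene overlaps it, so reads cannot be assigned to it alone. The gene annotated as MIR414 had 42.1 and 12.1.

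Called genes lay beside each other more often than tested genes in general. Of 1238 genes called higher on the nuclear chromosomes 281 had a directly neighbouring tested gene that was called higher too, 22.7%, against 12.6% of all 18712 tested genes. For genes called lower the shares were 12.2% (85 of 699) and 7.31%. Tandem copies, which can share reads, are among these neighbours. There were 29 runs of 3 or more neighbours called in 1 direction, 3 of which held 4 genes, all higher. The first holds the thalianol genes AT5G47980, CYP705A5, CYP708A2 and THAS1 (chromosome 5, 19428888 to 19461689, TAIR10). Another holds NSP3, NSP1, NSP4 and PBP1 (chromosome 3, 5562571 to 5580953), lectin-domain genes of glucosinolate breakdown and ER bodies. The remaining one runs from RAP2.4, another name of WIND1, to TPR12 (chromosome 1, 29364249 to 29396086). ARR4 lay in a run of 3 with GLP7 and ZFP5 on chromosome 1.

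The wild-type effect was set against that in the groups labelled CPL4RNAi, to find where it differs. CPL4 is a phosphatase of the tail of RNA polymerase II; the sample titles call these plants CPL4RNAi and the genotype field calls them CPL4 KO. Its own gene (AT5G58003) had 32.2 FPKM with cytokinin and 36.3 without in the groups labelled CPL4RNAi, against 13.9 and 14.5 in wild type. Whether these reads come from the gene itself was not tested, and directions below are those of the groups as labelled. The difference (log2 fold change in CPL4RNAi minus that in wild type) was tested in 17941 genes by a normal test with the standard errors implied by the deposited p-values and Benjamini-Hochberg adjustment. It was called at an adjusted p at or under 0.05 in 472 genes (2.63%), 382 negative (2.13%) and 90 positive (0.502%). Of these calls 235 rest on a standard error known only as an upper bound, and with solved standard errors alone 157 genes were called. Of 1187 genes called higher in wild type and tested for the difference, 198 had a negative difference and 12 a positive one. These counts were chosen on the wild-type effect that enters the difference, and are given as a description.

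Among the lists, lignin and secondary wall genes held the most negative differences, with 11 of 20 lignin genes and 9 of 19 secondary wall and protease genes tested for the cytokinin effect. The xylem regulator and cambium lists held 2 each, as did the heat shock, wall loosening and aquaporin lists. XCP2 had a log2 fold change of -0.57 in CPL4RNAi and 2.89 in wild type, a difference of -3.45 (SE at most 0.73). LAC17 had -0.05 and 3.52, CESA8 had -0.83 and 2.48, and PXY had -0.06 and 1.45. In the groups labelled CPL4RNAi, XCP2 had 15.8 FPKM with cytokinin and 23.4 without, against 13.5 and 1.83 in wild type. PXY had 56.9 and 59.5 in the groups labelled CPL4RNAi, against 29.3 and 10.7 in wild type. For both genes the level without cytokinin was higher in the group labelled CPL4RNAi than in wild type, and the level there with and without cytokinin was in reverse order or nearly equal. Of the 9 type-A regulators tested for the cytokinin effect, 2 had a called difference, both positive. ARR7 had log2 fold changes of 2.88 in CPL4RNAi and 1.81 in wild type (difference 1.07, SE at most 0.23), and ARR4 had 1.36 and 0.79 (0.57, SE 0.16). CKX5 had 1.76 and 1.07. None of the thalianol and marneral genes and none of the nitrate genes was called for the difference, which does not show that they respond alike.

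**Figure D5:**
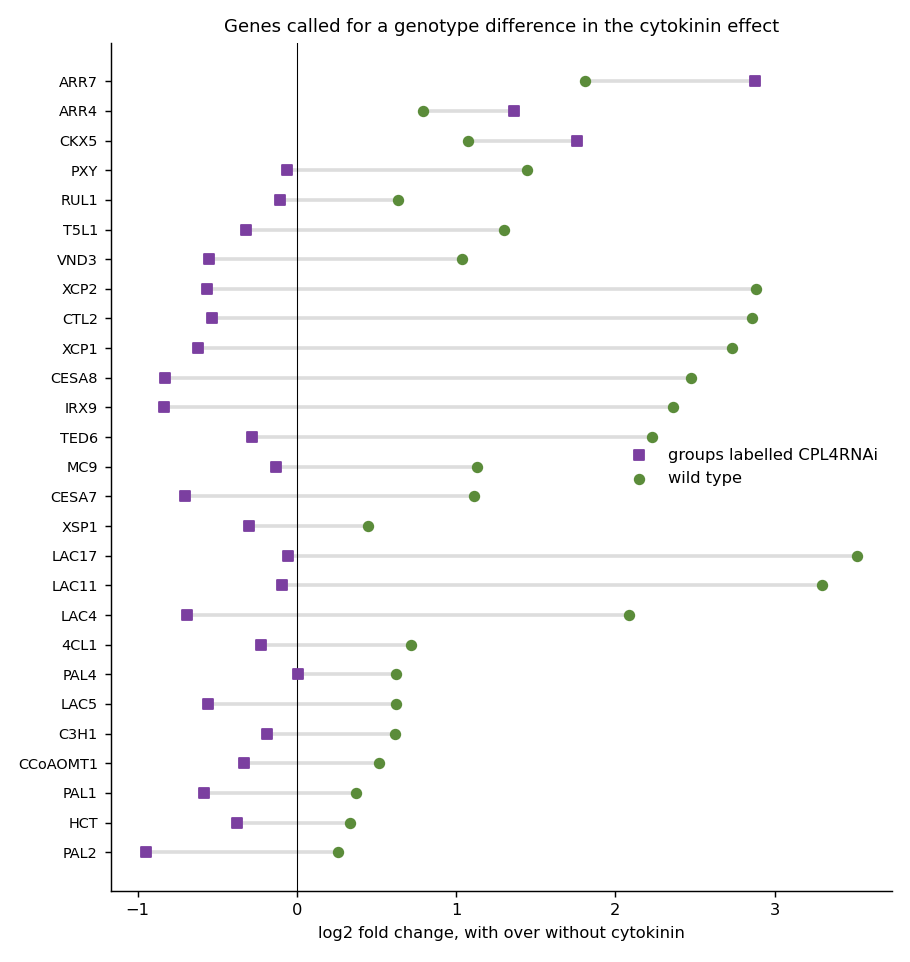
Squares (purple) are log2 fold changes with over without cytokinin in the groups labelled CPL4RNAi and circles (green) those in wild type (x axis), for called members of the cytokinin, cambium, xylem, secondary wall and lignin lists whose difference was called (rows). ARR7, ARR4 and CKX5 lie further right in CPL4RNAi, and all other genes shown lie further right in wild type. Only genes called in wild type are drawn, and that effect enters the difference, so the positions are a description.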

How the data were processed

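Total RNA was depleted of ribosomal RNA and sequenced as stranded, paired reads of 125 nt, per the labels' protocols. bcl2fastq 2.17.1.14, TopHat2 2.0.14 and Cuffdiff 2.2.1.3 and the build TAIR10 are named in the submitters' processing notes. The strand setting of the counting is not given in the sources used here, so reads of overlapping and antisense genes may not be separated. The authors deposited 1 FPKM value per gene and group, in which the 3 samples are pooled, so the depth per sample is unknown. The p-value and q-value of each comparison are the authors' deposited ones. The deposited q-values equal Benjamini-Hochberg values over all 115069 tests of the 6 comparisons, within 5.3e-07.

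From these, log2 folds were computed. A standard error is the absolute log2 fold divided by the normal quantile of the deposited p (not solved for p above 0.95), and a 95% interval is the fold ± 1.96 times it. For the genotype difference, standard errors whose solutions differed by more than 10% were left out (445 genes), and upper bounds were used where p was at its floor (1325 genes). The procedure was tested on simulated data for the 16616 genes with a solved standard error, with normal errors of the size the test assumes. It called 73 of 100 genes with a simulated log2 difference of 1, and 83 of 100 with 2. Of 16416 genes with no difference it called 9. Genes with only an upper bound were not simulated. Computation used pandas 2.3.3 and numpy 2.4.6 in Python 3.11.15, with quantiles from scipy 1.17.1 and plots from matplotlib 3.10.9. Of the features, 32809 matched RefSeq.

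Named genes are members of 41 lists (728 genes) and genes chosen by size. Among called genes these are the 15 largest rises and falls with an FPKM of 5 or more and the 10 largest changes in FPKM each way. Called genes listed at 0 in 1 group and the 5 largest called genotype differences each way are named too. The comparison, the members and the lists were chosen with earlier results of these data known, and 3 lists and 8 families were added after values were seen. Some members of the lists are counted but not reported here by name.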

Additional observations from a re-analysis of the deposited data

Results flagged for a closer look

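The following genes had a cytokinin effect that differed between the groups labelled CPL4RNAi and wild type in a test of the difference itself. They are a part of the 472 genes called, and other called genes, some of them list members, are not named. Each value is the log2 fold change in CPL4RNAi minus that in wild type, with an adjusted p at or under 0.05 (normal test, Benjamini-Hochberg over all genes tested). Where a deposited p-value stood at its floor the standard error is an upper bound. The cause of these differences was not tested, and the FPKM listed for CPL4 was higher in the groups labelled CPL4RNAi.

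Among xylem, secondary wall and cambium genes the differences were negative in XCP2 (-3.45), CTL2 (-3.40), XCP1 (-3.36), CESA8 (-3.30), IRX9 (-3.20), TED6 (-2.51), CESA7 (-1.82), T5L1 (-1.63), VND3 (-1.59), PXY (-1.51), MC9 (-1.26), ATHB8 (-0.78), XSP1 (-0.74) and RUL1 (-0.74). Among lignin genes they were negative in LAC17 (-3.57), LAC11 (-3.39), LAC4 (-2.78), PAL2 (-1.20), LAC5 (-1.18), PAL1 (-0.95), 4CL1 (-0.94), CCoAOMT1 (-0.85), C3H1 (-0.80), HCT (-0.71) and PAL4 (-0.62), and in the flavonoid gene CHS (-0.81). The peroxidase genes AT5G51890 (-3.22) and AT4G36430 (-0.99) also had negative ones. Of the wall loosening genes, XTH31 (-1.14) and XTH15 (-1.01) did, and of the aquaporins PIP2;5 (-1.37) and PIP1;1 (-0.53). Other negative differences were those of MLP328 (-1.33), AT3G18280 (-1.19), JOX2 (-1.02), DREB2A (-0.76) and UPI (-0.62).

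Positive differences were found in the cytokinin genes ARR4 (0.57), ARR7 (1.07) and CKX5 (0.69), in the Aux/IAA gene IAA5 (1.76) and in the root cap gene BRN1 (1.23). They were also found in SVB (0.63), AT5G40590 (0.82), AT1G67750 (1.22), AT3G28600 (1.66), AT5G47600 (1.75), AT2G16005 (1.88) and AT3G27950 (3.53).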

How the results depend on the processing

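With q at or under 0.01 the called genes numbered 1262 (806 higher and 456 lower), and with a fold of at least 2 they numbered 518 (313 and 205). Adjustment over the tests of this comparison alone gave 1320. The same adjustment within genes of 1 FPKM or more in the higher group gave 1304, and within protein-coding nuclear genes 1317, so both change the adjustment as well as the gene set. Of the list members, 52 were called higher and 22 lower with at least 2-fold changes. The genotype difference was called in 157 genes with solved standard errors alone and in 231 at an adjusted p at or under 0.01, against 472. The share of promoters with a motif was 13.5% (called higher), 9.89% (called lower) and 11.5% (all tested) for AAGATNTT, and 36.1%, 34.5% and 37.4% for AGATT on the gene's strand only; among the 97 genes called at least 4-fold higher it was 18.6% and 46.4%. In windows of 1000 bases, chosen after seeing the data, it was 98.4%, 98.6% and 98.3%. With neighbours on the same strand only, 185 genes called higher had one, 14.9% against 7.2% of all tested genes. Of genes called lower 45 did, 6.44% against 4.03% of all tested genes. No named fold change of 625 was reversed by a pseudocount of 1 or by recentring, and 12 moved with the pseudocount. Leave-one-out fits were not run because only group values are held. No paired analysis was possible because the table has no columns per replicate. Genes of low FPKM had wide intervals, so changes there may be missed.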
